A study of Canis lupus familiaris with 10 samples.

Results

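The metalloproteinases and their inhibitors were examined in canine cutaneous histiocytoma (CCH), a growth of Langerhans cells in the skin of mostly young dogs that usually regresses on its own. The genes were taken by symbol alone: MMP, TIMP, ADAM or ADAMTS followed by a number. This rule found 57 of the 23266 symbols of the deposited table, namely 19 matrix metalloproteinases (MMP), 4 tissue inhibitors of metalloproteinases (TIMP), 15 ADAM genes and 19 ADAMTS genes. Archived tumor tissue (formalin-fixed and paraffin-embedded, FFPE) was sequenced with QuantSeq 3′, and the values are read counts divided by 1 size factor per library, from here on called normalized read counts. QuantSeq 3′ reads come from the end of the transcript and do not grow in number with its length. Levels of different genes are set side by side here on that ground only. The study extended genes at the 3′ end because annotated ends can be too short, and what remains of this per gene was not tested.

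Libraries of 5 early CCH (histological group 1) and of 5 late CCH (group 3, labeled as rich in lymphocytes) were compared. The dogs were of several breeds and of both sexes, were given no treatment in the labels, and were 0.5 to 5 years old in the early group (age given for 4) and 1.5 to 9 years old in the late group. The share of RNA fragments over 200 nucleotides (DV200) averaged 68.5% ± 2.46 for early and 73.2% ± 2.09 for late CCH by the labels (SD over 5 samples per stage). For 1 late sample the study's supplement gives another DV200, which was not used here. The RNA of each stage was extracted in batches of its own, which means that stage and extraction batch cannot be told apart, and a table column shows the stage but not the individual dog. Library numbers therefore serve as names only.

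MMPs are secreted or membrane-bound zinc enzymes that cut collagens, gelatin, elastin and other matrix proteins, and most are made as inactive precursors. ADAM proteins sit in the cell membrane, where the active ones release ("shed") cytokines, receptors and adhesion molecules, while ADAMTS proteins are secreted and trim proteoglycans and procollagens. TIMPs bind the active site of these enzymes and block it, with TIMP3 covering the widest range, including ADAM17 and aggrecan-cleaving ADAMTS. In skin, fibroblasts, macrophages, endothelium and keratinocytes are all known sources of one or another of them.

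The libraries held 3132916 to 4439709 reads in early and 2973125 to 3230455 reads in late CCH, and 3 reads were worth 2.36 to 3.22 normalized reads, depending on the library. Of 12 T-cell markers, 12 passed limma with Benjamini-Hochberg (BH) adjustment upwards, as 5.53% of all genes tested did, and their summed level was 86.6 to 2851 in early and 4495 to 7013 in late CCH. The 8 markers of Langerhans and dendritic cells in the table summed to 695 to 1655 in early and 293 to 621 in late CCH, and 4 of the 7 tested passed downwards in limma with BH adjustment, as 3.52% of all genes tested did. The defining marker CD207 of Langerhans cells has no row in the table, so that the label could be checked only with the others. The macrophage sum was 1279 to 10036 and 5595 to 10868, and the fibroblast sum 8389 to 62730 and 12997 to 39028. C1QA, C1QB and C1QC had the highest late means of the macrophage list (2299, 2070 and 2040). Of its 9 tested markers 2, MSR1 and C1QB, passed upwards in limma with BH adjustment, as 5.53% of all genes tested did. Means of MRC1 (301 against 150) and CD163 (323 against 232) were lower in late CCH. Of 10 tested fibroblast markers 1, THY1, passed upwards, against the same share. Early library 2 held the highest of the early macrophage and fibroblast sums. In bulk tissue, fewer cells of a type and less RNA per cell cannot be told apart, and this holds for every difference below.

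TIMP1 was the most abundant of the 57 genes in every library. It is a secreted inhibitor of most MMPs. In normalized read counts, it stood at 9781, 19023, 3152, 4295 and 7973 in early libraries 1 to 5, and 8392, 7099, 6883, 3824 and 11953 in late libraries 1 to 5. Both the highest and the lowest value belonged to early CCH, and the groups overlapped. TIMP1 alone made up 69.7% ± 8.82 of the summed signal of the 57 genes in early CCH and 70.0% ± 10.2 in late CCH (SD over 5 libraries each). It exceeded the next most abundant of these genes 7.21 to 19.4 times in early and 6.05 to 19.4 times in late libraries. Its log2 fold change (log2FC, late minus early, on log2(value + 1)) was -0.02 ± 0.44 (SE), with a 95% interval from -0.97 to 0.93, which leaves room for a difference of either sign. Its sign turned to 0.07 when the libraries were scaled by column total.

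**Figure D1:**
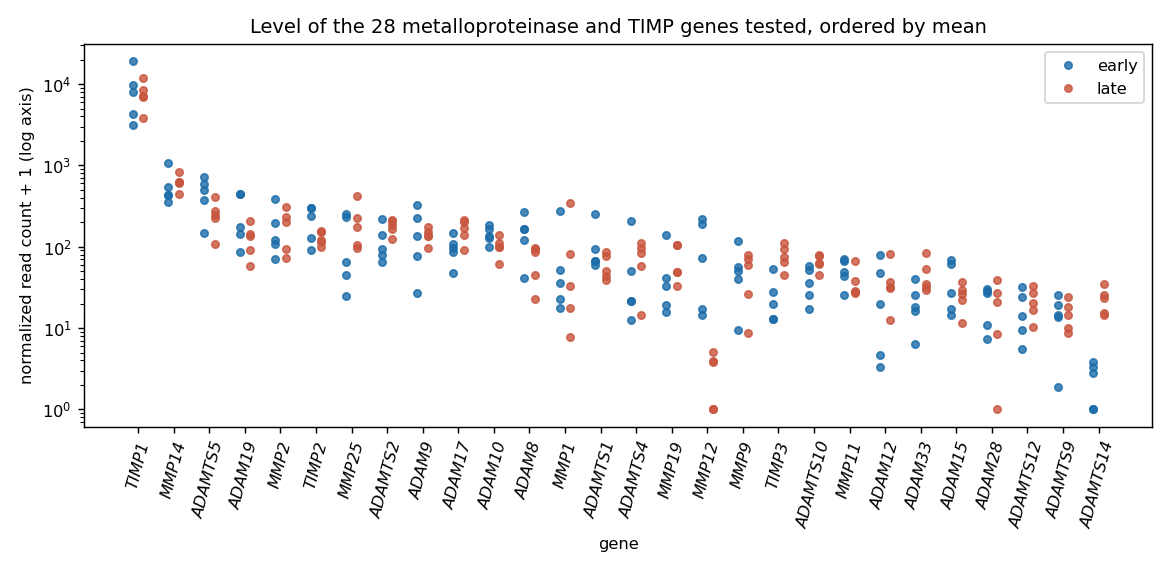
Normalized read count (log axis) of the 28 genes tested, ordered by their mean over the 10 libraries, with 1 added to each value and 1 point per library colored by stage. TIMP1, between 3152 and 19023, stands above all other genes in every library, and MMP14 follows between 351 and 1072.

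A gene was tested when its normalized read count reached 10 in at least 5 libraries, which 28 of the 57 did: 8 MMPs, 3 TIMPs, 9 ADAMs and 8 ADAMTSs. Of these, 19 reached 10 in every library, while ADAMTS14 passed the filter through late CCH alone and MMP12 through early CCH alone, so that those 2 had to differ in some degree. Of the other 29, MMP20, MMP26, ADAM18, ADAM20 and ADAM21 had no read in any library and the remaining 24 had a mean of 0.315 to 13.8. All tests compared late with early CCH in limma over all 12397 genes that passed the filter, and a call required both an adjusted p of 0.05 or less and a log2FC of 1 or more in either direction.

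None of the 28 tested genes was called in limma with Benjamini-Yekutieli (BY) adjustment, against 2.17% of all genes tested (1.06% higher and 1.11% lower in late CCH). At an unadjusted p of at most 0.05 there were 8 of 28 (6 higher and 2 lower in late CCH), against 30.9% of all genes tested. With BH adjustment, limma called 3 of 28 (ADAMTS14 and TIMP3 upwards, MMP12 downwards), against 9.04% of all genes (5.53% upwards and 3.52% downwards). On the reads of 9 libraries and with BY adjustment, edgeR called 0 of the 28 (against 0.315% of all genes) and DESeq2 called 2, ADAMTS14 and MMP12 (against 5.59%). The late values lay entirely above the early ones for 1 gene, ADAMTS14, where 5.91% of all genes did so, and entirely below for 1 gene, MMP12, where 6.05% did so. The unadjusted, BY-adjusted and edgeR counts and those of genes without overlap were under these background shares, and the counts with BH adjustment and with DESeq2 were above them by less than 1 gene. The median log2FC was 0.16 over the 28 genes and -0.0037 over all genes tested, with 15 values above and 13 below 0. By family it was -0.03 for the MMPs, -0.02 for the TIMPs, -0.39 for the ADAMs and 0.60 for the ADAMTSs.

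**Figure D2:**
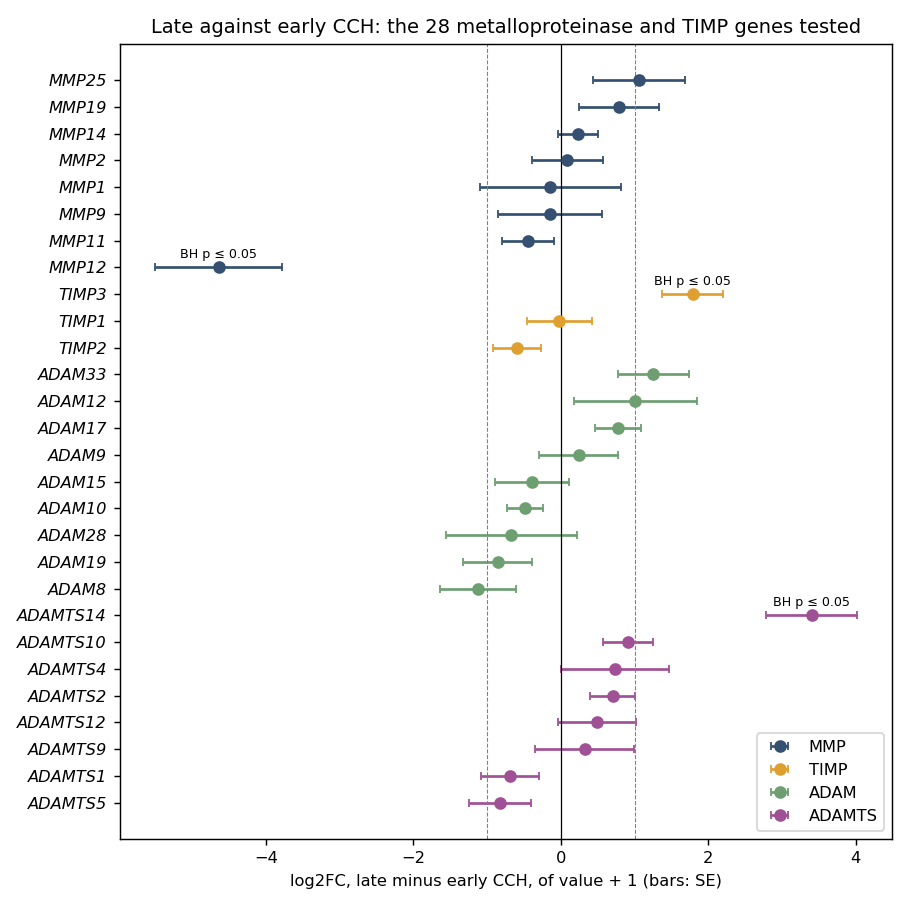
Log2FC (late minus early, limma on log2(value + 1)) of each of the 28 genes tested with its standard error, colored and grouped by family, dashed lines at -1 and 1, and a mark on the 3 genes with a BH-adjusted p of at most 0.05. Values run from -4.64 for MMP12 to 3.40 for ADAMTS14, with TIMP3 at 1.79, and no gene passed the BY-adjusted threshold.

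MMP12, the macrophage elastase, degrades elastin and had the most negative log2FC of the 28 genes. Its normalized read count was 72.4, 219, 192, 13.4 and 16.1 in early libraries 1 to 5, and 2.98, 2.85, 0, 4.09 and 0 in late libraries 1 to 5. Every late value lay below every early value, and early libraries 2 and 3 were far above the other early ones. In reads, the early libraries held 555 and the late libraries 10, of which 2 libraries held none and the others stood near the level of 3 reads. Means were 102 ± 97.2 for early and 1.99 ± 1.88 for late CCH (SD, n = 5 each), and the log2FC was -4.64 ± 0.86 (SE). In limma its BY-adjusted p was 0.0552, just outside the threshold, and its BH-adjusted p was 0.00552. Without early library 4, the lowest of the early ones, the log2FC was -5.16 with a BY-adjusted p of 0.0432 in limma. Leaving out any other single library instead gave a BY-adjusted p of 0.0832 to 0.151 in limma, so that MMP12 stayed uncalled. The summed macrophage markers were not lower in late CCH (the ranges are given above), while those of Langerhans and dendritic cells were, and the part of either in the MMP12 difference was not tested.

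MMP12 lies in a cluster of MMP genes on the chromosome, between MMP13 and MMP3 in the RefSeq annotation of the assembly UU_Cfam_GSD_1.0. These neighbors, a collagenase and a stromelysin, were near the lower limit in both stages and were not tested. MMP13 had 6.24 ± 4.61 in early and 3.93 ± 6.15 in late CCH, and MMP3 had 5.97 ± 9.86 and 4.50 ± 4.46 (SD, n = 5 each, normalized read counts). MMP1, the interstitial collagenase of the same cluster, ranged from 16.5 to 277 in early and from 6.78 to 339 in late CCH. Its log2FC of -0.14 ± 0.96 (SE) had a 95% interval from -2.22 to 1.93. MMP1, MMP3 and MMP13 were picked for their position beside MMP12 after their values were seen. Thus the values of MMP12 separated by stage and those of its neighbors did not.

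ADAMTS14, which removes the amino-terminal propeptide of procollagens, had the largest positive log2FC. It was measured at 0, 2.79, 1.81, 2.36 and 0 in early libraries 1 to 5, and 33.8, 24.7, 22.3, 14.3 and 13.6 in late libraries 1 to 5. All late values lay above all early values, and no early library held more than 3 reads. The reads summed to 8 in early and 110 in late CCH, and the means were 1.39 ± 1.32 and 21.8 ± 8.30 (SD, n = 5 each). The log2FC was 3.40 ± 0.62 (SE), a size that depends on the pseudocount because the early level is within a few reads of 0. In limma its BY-adjusted p was 0.0501 and its BH-adjusted p 0.00501, and it was called with BY adjustment when the libraries were scaled by column total or with a pseudocount of 5. In the same annotation ADAMTS14 is separated by 1 gene from PRF1, the pore-forming protein of cytotoxic lymphocytes. TBATA, the next coding gene on the other side, held 5 reads in all libraries together. PRF1 was picked for its position, and whether position has a part in the ADAMTS14 difference was not tested. PRF1 itself was measured at 61.6 ± 63.3 in early and 493 ± 270 in late CCH (SD, n = 5 each, normalized read counts), with a log2FC of 3.43 ± 0.69 (SE) and a BH-adjusted p of 0.00756 in limma. T-cell markers were higher in late CCH too (above), and the part of T cells in the ADAMTS14 difference was not tested.

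The other enzymes of procollagen processing were nearer to each other between the stages. ADAMTS2, which carries out the same cleavage, showed normalized read counts of 93.3, 218, 63.3, 78.0 and 140 in early libraries and of 183, 215, 125, 163 and 206 in late libraries 1 to 5. Apart from early library 2, which was the highest of all, and early library 5, the early values lay below the late ones. The log2FC was 0.70 ± 0.31 (SE) with a BH-adjusted p of 0.137 in limma. ADAMTS3, the remaining member of that subfamily, was too low to be tested, with 29 reads in early and 47 in late CCH. ADAMTS14 had the highest log2FC of the 2 tested procollagen N-proteinases but much the lower level, since the late mean of ADAMTS2 was 178 ± 36.1 (SD, n = 5).

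TIMP3 binds to the extracellular matrix and inhibits ADAM17 beside the MMPs. Its normalized read count was 26.7, 18.6, 11.8, 52.8 and 11.8 in early libraries 1 to 5, and 109, 64.7, 73.6, 94.1 and 44.1 in late libraries 1 to 5. The groups overlapped only because early library 4 exceeded late library 5. The means were 24.3 ± 17.0 and 77.2 ± 25.4 (SD, n = 5 each), with 139 and 388 reads. The log2FC of 1.79 ± 0.41 (SE) had a 95% interval from 0.89 to 2.68, a BH-adjusted p of 0.0140 and a BY-adjusted p of 0.140 in limma. Without early library 4, the highest of the early ones, the log2FC was 2.11 and the BY-adjusted p 0.0476 in limma. Leaving out any other single library instead gave a BY-adjusted p of 0.156 to 0.418 in limma, so that TIMP3 stayed uncalled. With edgeR on 9 libraries, without late library 1 and so without the highest value, its BH-adjusted p was 0.0539. In limma without that library the BH-adjusted p was 0.0359.

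TIMP2, the inhibitor that also takes part in the activation of pro-MMP2 by MMP14, had the opposite sign. The values were 299, 301, 128, 90.6 and 240 in early libraries and 113, 149, 97.8, 120 and 156 in late libraries 1 to 5. Early libraries 1, 2 and 5 were above every late library, and early library 4 was below all of them. The log2FC was -0.60 ± 0.32 (SE) with a BH-adjusted p of 0.231 in limma, a difference within the spread between libraries. TIMP3 made up 12.8% ± 13.5 of the summed TIMP2 and TIMP3 signal in early and 37.7% ± 11.2 in late CCH (SD, n = 5 each), with ranges of 4.68% to 36.8% and 22.0% to 49.1%. TIMP4 was close to absent at this depth, with 2 reads in early and 2 in late CCH.

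**Figure D3:**
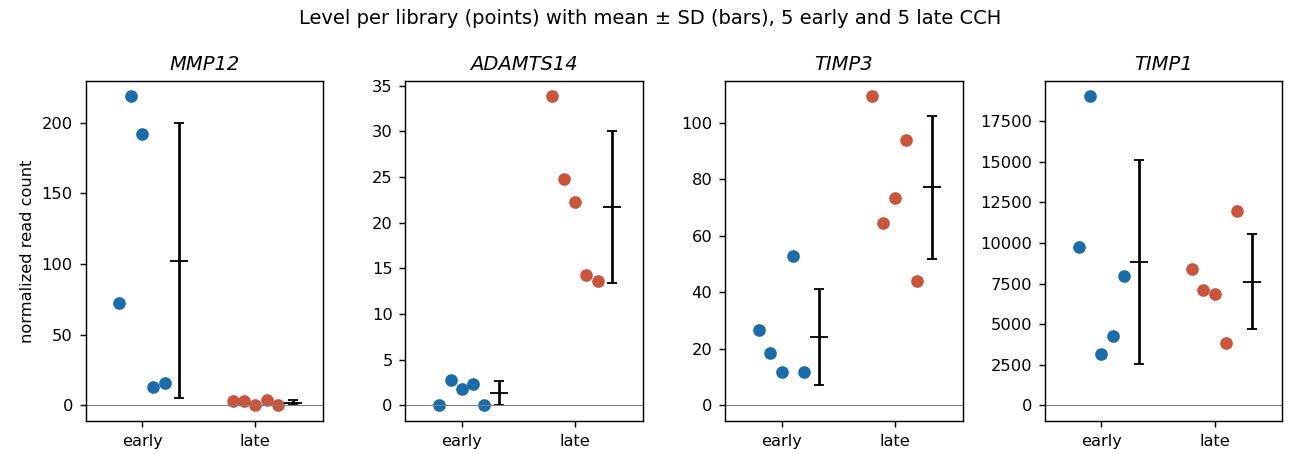
Normalized read count (linear axis, 1 panel per gene) of MMP12, ADAMTS14, TIMP3 and TIMP1 in 5 early (blue) and 5 late (red) libraries, with the mean and SD of each stage as black bars. MMP12 and ADAMTS14 show no overlap between the stages, TIMP3 overlaps only through early library 4 and late library 5, and TIMP1 overlaps widely.

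MMP14, the membrane-type enzyme that cuts collagen at the cell surface and activates pro-MMP2, had the highest mean level of the proteinases, although ADAMTS5 exceeded it in early libraries 1 and 5. Its normalized read count was 426, 1072, 437, 547 and 351 in early libraries and 821, 612, 440, 632 and 616 in late libraries 1 to 5. Early library 2 was the highest of all 10, and the other early values lay below 4 of the 5 late ones. With it the log2FC was 0.23 ± 0.27 (SE), and without it 0.49, both with a BY-adjusted p of 1 in limma. MMP14 made up 37.3% to 52.4% of the summed MMP signal in early and 39.1% to 60.9% in late CCH. MMP25, another membrane-type MMP known from neutrophils, was the second membrane-type MMP tested. Normalized read counts were 23.8, 64.2, 254, 231 and 44.0 in early libraries and 174, 106, 417, 222 and 96.5 in late libraries 1 to 5. Early libraries 3 and 4 were high and the other early ones low, so the groups overlapped, and the log2FC was 1.06 ± 0.63 (SE) with a BH-adjusted p of 0.274 in limma. The 9 neutrophil markers in the table, of which 5 were tested, summed to 242 to 9433 in early and 142 to 9033 in late CCH. High sums rested mostly on S100A8, S100A9 and S100A12, which were 3970, 1883 and 3450 in early library 2. In the same library CSF3R was 67.9, CXCR1 37.2 and MPO 0.930. The part of neutrophils in the MMP25 values was not tested.

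The gelatinases MMP2 and MMP9, which cut denatured collagen and basement membrane collagen, differed by less than the spread between libraries. MMP2, mostly a fibroblast product, showed normalized read counts of 119, 391, 107, 69.3 and 198 in early libraries and of 307, 198, 71.7, 228 and 92.3 in late libraries 1 to 5. The log2FC was 0.09 ± 0.48 (SE), with a 95% interval from -0.96 to 1.13 and a sign that turned with the libraries included. MMP9, known from neutrophils and macrophages, had 56.2, 117, 38.9, 49.6 and 8.59 in early and 69.6, 59.0, 7.75, 25.6 and 77.6 in late libraries 1 to 5. The lowest value of each stage was far below the rest of that stage in early library 5 and late library 3. Its log2FC was -0.15 ± 0.70 (SE), with an interval from -1.68 to 1.37. This interval reaches past -1 and 1, so that the data leave room for a large difference of either sign.

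The 9 tested ADAMs all belong to the group that is known or held to be proteolytically active. ADAM17, the enzyme that releases TNF, showed normalized read counts of 95.2, 145, 109, 46.5 and 85.9 in early libraries and of 210, 201, 91.0, 140 and 167 in late libraries 1 to 5. Late libraries 1, 2 and 5 lay above all early ones, and early library 2 exceeded late libraries 3 and 4. The log2FC was 0.77 ± 0.31 (SE; unadjusted p = 0.0265 in limma), with a BH-adjusted p of 0.107. ADAM10, its close relative and the main Notch sheddase, had means of 141 ± 33.5 in early and 101 ± 28.1 in late libraries (SD, n = 5 each). The log2FC of ADAM10 was -0.49 ± 0.24 (SE) with a BH-adjusted p of 0.192 in limma. It is named here after its values were seen, as a counterpart to ADAM17: the signs were opposite, and the difference between the 2 genes was not tested.

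ADAM8, a sheddase of leukocytes and myeloid cells, showed normalized read counts of 268, 166, 121, 40.2 and 165 in early libraries and of 43.8, 92.3, 84.3, 21.5 and 94.4 in late libraries 1 to 5. Every early value except that of early library 4 lay above all late values. The log2FC was -1.12 ± 0.51 (SE) with a BH-adjusted p of 0.155 in limma. ADAM19, known from dendritic cells, had 173, 443, 141, 85.1 and 444 in early and 134, 91.3, 209, 142 and 56.7 in late libraries 1 to 5. The high values came from early libraries 2 and 5, and the log2FC was -0.86 ± 0.47 (SE) with a BH-adjusted p of 0.239 in limma. ADAM9 had 227, 328, 75.1, 26.0 and 133 in early and 152, 172, 95.9, 136 and 135 in late libraries 1 to 5. Its late values were close together and its early values far apart. Its log2FC of 0.24 ± 0.54 (SE) turned sign in edgeR and DESeq2, which leave out late library 1. In limma without that library it was 0.20.

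ADAM33, a gene of mesenchymal cells, and ADAM12, a gene of activated stroma, had the highest log2FC of the ADAMs. ADAM33 showed normalized read counts of 17.1, 39.1, 5.43, 24.4 and 15.0 in early libraries and of 52.7, 82.8, 31.0, 33.7 and 28.3 in late libraries 1 to 5. Early library 2 alone exceeded a late value, and the log2FC was 1.25 ± 0.48 (SE) with a BH-adjusted p of 0.0967 in limma. ADAM33 overlaps SIGLEC1, a macrophage gene, in the annotation, and SIGLEC1 had a log2FC of 0.29 ± 0.52 (SE). ADAM12 had 19.0, 77.2, 3.62, 2.36 and 46.2 in early and 79.5, 36.2, 11.6, 30.7 and 30.4 in late libraries 1 to 5. Its log2FC of 1.01 ± 0.83 (SE) was within the spread between libraries. It was below 0 in edgeR and DESeq2 on 9 libraries, without late library 1, its highest value. In limma on the same 9 libraries it was 0.68. Of the 4 ADAMs without a complete active site and the 2 others mostly of testis, none was tested, and their means were at most 1.12.

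ADAMTS5, a main aggrecanase and versican-cleaving enzyme, was the most abundant ADAMTS. Its normalized read count was 504, 597, 370, 146 and 727 in early libraries and 277, 411, 223, 242 and 108 in late libraries 1 to 5. Early libraries 1, 2 and 5 were above all late ones and early library 4 was below 4 of them, and the log2FC was -0.83 ± 0.42 (SE) with a BH-adjusted p of 0.208 in limma. ADAMTS1, which cuts versican as well, had 65.7, 93.0, 66.0, 58.3 and 250.1 in early and 37.8, 77.1, 84.3, 42.9 and 49.3 in late libraries 1 to 5. Early library 5 stood apart, and the log2FC was -0.69 ± 0.39 (SE). ADAMTS4 and ADAMTS9, the other 2 proteoglycanases tested, had positive log2FC, 0.73 ± 0.73 and 0.32 ± 0.67 (SE), so that the 4 tested proteoglycanases had no common sign. ADAMTS10, known for its part in fibrillin microfibrils and named after its values were seen, had means of 36.6 ± 17.0 in early and 64.5 ± 13.9 in late libraries (SD, n = 5 each), which gave a log2FC of 0.91 ± 0.34 (SE) with a BH-adjusted p of 0.0910 in limma. Some untested genes are also named after their values were seen. Of the ADAMTS genes among them, the late libraries held more reads of ADAMTS7 (71 against 29), ADAMTS6 (59 against 16) and ADAMTS13 (37 against 8). They held about as many of ADAMTS16 (20 against 22). Of the MMPs they held fewer reads of MMP28 (28 against 57) and MMP24 (3 against 17). All of these are near the lower limit, and late library 1 held no read of ADAMTS6 or ADAMTS13.

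**Figure D4:**
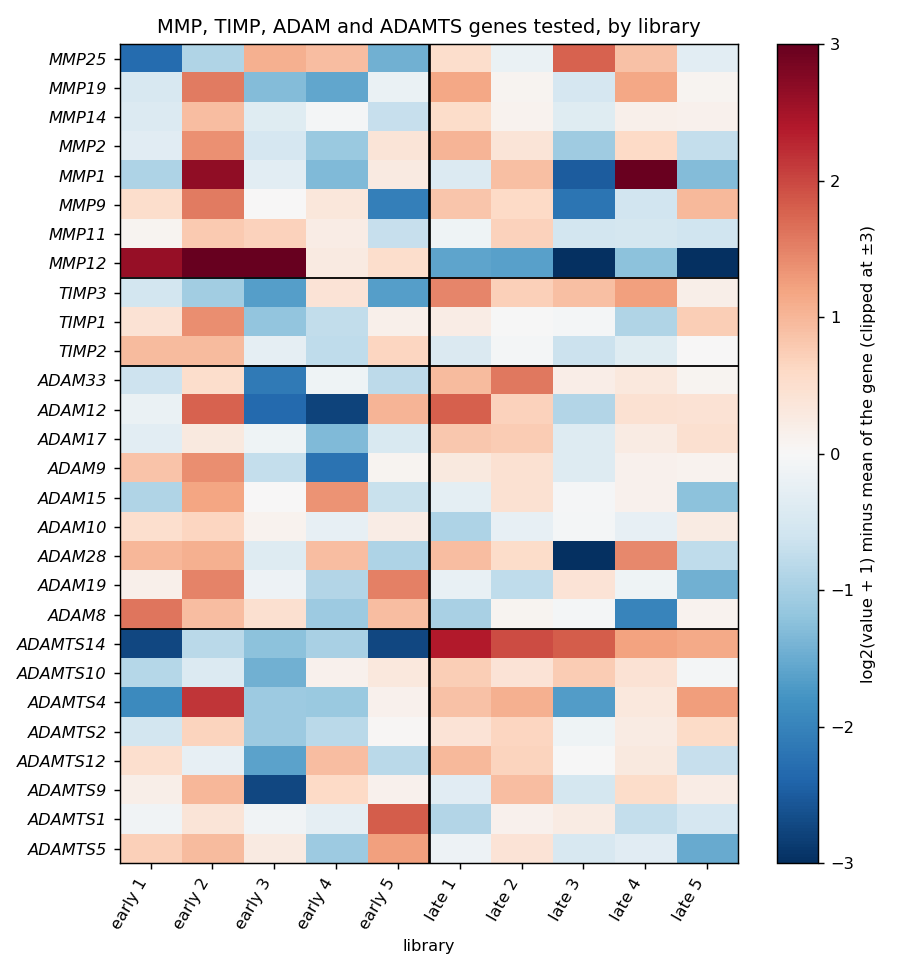
Log2(value + 1) of each of the 28 genes tested in each of the 10 libraries, relative to the mean of that gene over all libraries, with genes grouped by family and libraries by stage. Colors are limited to 3 log2 units either way, early library 2 holds the highest early value for 19 of 28 genes, and MMP12 and ADAMTS14 show the clearest split by stage.

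The summed levels of the families did not separate the stages. The MMP sum was 1267 ± 703 in early and 1300 ± 298 in late CCH, the TIMP sum 9081 ± 6368 and 7835 ± 2940, the ADAM sum 913 ± 410 and 723 ± 79.6, and the ADAMTS sum 850 ± 383 and 745 ± 146 (SD, n = 5 each, normalized read counts). For every 100 normalized reads of TIMPs there were 8.26 to 35.6 of MMPs in early libraries and 8.32 to 40.1 in late libraries (means of 18.0 and 19.7). Early library 2 carried much of the early spread: its MMP sum was 2493, and the other early libraries held 789 to 1172. Without it the early mean of the MMP sum was 960 ± 180 (SD, n = 4), and that of the TIMP sum 6516 ± 3190 (SD, n = 4). No test was run on these sums.

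**Figure D5:**
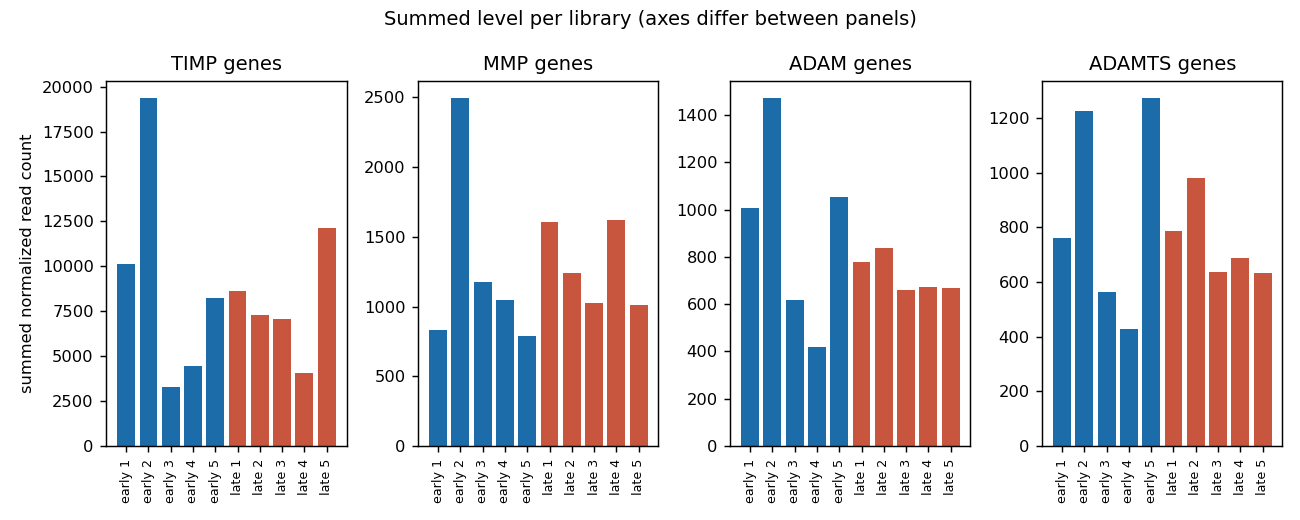
Summed normalized read count of the TIMP, MMP, ADAM and ADAMTS genes as 1 bar per early (blue) and late (red) library, with an axis from 0 of its own in each panel. The MMP sum of early library 2 is 2493, above the 789 to 1172 of the other early libraries, and the TIMP sum is above the others in every library.

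Values of the 28 genes varied more among early than among late tumors. The coefficient of variation was larger in early CCH for 24 of 28 genes (85.7%), against 51.3% of all 12397 genes tested, and its median over the 28 genes was 0.683 in early and 0.436 in late CCH. Without early library 2 it was larger in early CCH for 20 of 28 (71.4%), against 46.2% of all genes. Early library 2 had the highest early value for 19 of the 28 genes, where it had it for 23.0% of all genes, and the highest value of all 10 libraries for 13. The 19 included TIMP1, TIMP2, MMP2, MMP9, MMP12 and MMP14, but not TIMP3, ADAM8, ADAM19, ADAMTS1 or ADAMTS5. The fibroblast sum was 62730 and the macrophage sum 10036 in that library, against at most 47441 and 4209 in the other early ones, and their part in its high values was not tested.

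Genes around the proteinases were read from lists of their regulators and substrates. Of 9 tested regulators, 0 were called in limma with BY adjustment and 0 with BH adjustment, against 2.17% and 9.04% of all genes tested. FURIN, which activates many proteinase precursors, came nearest to a difference by rank. Its level was 717, 1001, 494, 904 and 624 in early libraries and 485, 469, 418, 253 and 489 in late libraries 1 to 5. All late values lay below all early ones, as they did for 6.05% of all genes tested. The log2FC of -0.82 ± 0.23 (SE) was under the fold threshold, with a BH-adjusted p of 0.0322 in limma. TSPAN5, a tetraspanin that directs ADAM10, had the highest log2FC of the list at 1.48 ± 0.56 (SE), with a BH-adjusted p of 0.0932 in limma.

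Of 18 tested proteins that ADAM10 or ADAM17 are known to shed, 0 were called with BY adjustment in limma, against 2.17% of all genes tested. With BH adjustment 5 were called, all upwards (5.53% of all genes tested), among them TNF, LAG3, MERTK and FASLG. These 4 are products of lymphocytes or macrophages. Other genes of the list that such cells express were not called, among them TNFRSF1B (log2FC 0.07 ± 0.24) and IL6R (0.20 ± 0.35, SE). The part of these cells in the differences was not tested. FASLG, a death ligand of cytotoxic cells, had the highest log2FC at 3.40 ± 0.95 (SE), with 18.2 ± 24.1 in early and 88.5 ± 47.6 in late CCH (SD, n = 5 each, normalized read counts), and CDH1, the epithelial cadherin, had the lowest at -0.74 ± 0.45 (SE). LAG3, an inhibitory receptor of T cells, lay above all early values in every late library, as 5.91% of all genes tested did. The median log2FC of the 18 was 0.25. Of 11 tested proteoglycan and elastic matrix substrates, 0 were called with either adjustment in limma (2.17% with BY and 9.04% with BH of all genes tested). They ran from -1.50 ± 0.60 (SE) for THBS2, a matricellular protein, to 1.04 ± 0.43 (SE) for the proteoglycan BGN. Of 5 tested related proteins, 0 were called with either adjustment, against the same shares of all genes. They ran from -1.03 ± 0.83 (SE) for TLL1 to 0.93 ± 0.31 (SE) for MMP23B.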

How the data were processed

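RNA from FFPE tumors of 5 early and 5 late CCH was sequenced with QuantSeq 3′. The authors trimmed reads with Cutadapt, aligned them with STAR to CanFam3.1 and its RefSeq annotation, and counted them per gene with featureCounts. Reads left over were counted again on genes with extended 3′ ends, and reads with several places were shared evenly. DESeq2 is among the tools named in the submitters' processing notes, and versions are not given in the sources used here. The deposited values are a normalized signal per gene and library, the read count divided by a size factor. Sharing can leave fractions of a read, and whether counts were rounded is not given in the sources used here. In all 10 libraries the deposited values were whole multiples of the value of 1 read. The deviation was at most 5.28e-11 in late library 1. That library was still left out of the count tests, because its value of 1 read, 0.994, lay near 1. The table has 11 further value columns that match no sample, and these were not used.

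From these values limma 3.58.1 with a trend (R 4.3.3) was fitted on log2(value + 1), over genes with at least 10 in at least 5 libraries, late against early, without covariates. A call required both a BY-adjusted p no larger than 0.05 and a log2FC of 1 or more in either direction. edgeR 4.0.16 (quasi-likelihood) and DESeq2 1.42.0 were run on the recovered reads of 9 libraries as alternatives, beside other scalings, pseudocounts, filters and leaving out each library. The limma fit was also run on simulated reads with a known log2FC of 2 or 4 in size. It called 74% and 94% of these genes in the right direction, with 0 false calls. The simulated reads were not scaled between libraries as the data were, so these shares do not carry over to the data. The genes and lists were chosen with earlier results of these data known. Genes given in every library were those called or without overlap between stages, the 10 most abundant, the 5 largest differences in each direction among those tested, all TIMPs and MMP2 and MMP9. MMP1, MMP3, MMP13, MMP24, MMP28, ADAM10, ADAMTS4, ADAMTS6, ADAMTS7, ADAMTS9, ADAMTS10, ADAMTS13 and ADAMTS16 were named after their values were seen. The libraries come from different dogs.

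Gene order was taken from the RefSeq table of UU_Cfam_GSD_1.0, in which all 57 genes were found, and no coordinate was used because the build differs from CanFam3.1. Of the 28 genes tested, 10 overlap another gene there, and whether counting used strand is not given in the sources used here. TIMP1 overlaps SYN1, which had 39 reads in all libraries together. Intervals, SD and n refer to libraries. The values of 1 gene of the list of shed proteins are not reported here.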

Additional observations from a re-analysis of the deposited data

Results flagged for a closer look

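Among 48 sets of 5 values of a gene or family sum in 1 stage, 4 held a value far from the rest of its stage (gap to the nearest value over 0.71 of the range). For independent sets of normally spread values chance would give about 2.4. The sets are not independent, since the sums contain the genes, so the 4 cannot be set against that number. ADAMTS1 was 250.1 in early library 5, with the next early library at 93.0. MMP14 was 1072 in early library 2, with the next at 547, and the MMP sum of the same library was 2493, with the next at 1172. TIMP4 was 2.10 in late library 5, which is 2 reads, and 0 in the other late libraries, so that its gap had to span the whole range.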

How the results depend on the processing

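No paired analysis was possible because no replicate number stands in the table's headers and the tumors come from different dogs. Over all genes, the 269 calls (131 higher and 138 lower) became 1121 (685 and 436) with BH adjustment, 692 (391 and 301) with DESeq2 and 39 (17 and 22) with edgeR on 9 libraries, and limma on the same 9 libraries gave 86. Leaving out single libraries gave 55 to 263 (19 to 144 higher and 35 to 153 lower). Scaling by column total gave 169 higher and 95 lower calls and moved the median log2FC by 0.0883. A pseudocount of 5 gave 338 calls. Of the 28 genes, the 0 called became 1 (ADAMTS14, higher) with column-total scaling and with a pseudocount of 5. It became 3 with BH adjustment (2 higher and 1 lower), 2 with DESeq2 (1 in each direction), and 0 to 2 when single libraries were left out (0 to 1 in each direction; MMP12 and TIMP3 without early library 4). With a filter of 20 instead of 10, MMP12 and ADAMTS14 could not be tested. For the named genes, 331 of 358 values kept sign and side of the threshold, 9 newly passed and 18 changed sign. The sign changed for ADAM12 (-0.11 with edgeR, -0.13 with DESeq2) and ADAM9 (-0.22 and -0.23, and -0.28 to 0.62 leaving out libraries). It also changed for MMP2 (-0.25 and -0.26, and -0.18 to 0.44), MMP9 (-0.68 to 0.38 leaving out libraries) and TIMP1 (0.07 with column-total scaling, and -0.32 to 0.33). The edgeR and DESeq2 values leave out late library 1, and limma without it gave 0.68 for ADAM12, 0.20 for ADAM9 and -0.16 for MMP2. The cause was not tested. Where they could be tested, ADAMTS14 and MMP12 passed with BH adjustment (0.05) in 19 of 19 settings. Their log2FC ran from 2.04 to 3.91 and from -5.88 to -3.30. TIMP3 passed in 19 of 20, with 1.50 to 2.11. The settings of BH adjustment and of no fold threshold repeat the p of the main fit, and most others share libraries with it. ADAMTS14 and MMP12 also passed the filter through 1 stage alone, so these tallies are no independent support. With 5 libraries per stage and 8 to 10 reads of ADAMTS14 or MMP12 in the lower stage, the size of these differences is uncertain.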
